A study of Homo sapiens with 3 samples.

Results

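The genes examined here encode enzymes that modify, trim and splice transfer RNA (tRNA). They were a list of 43 gene symbols, chosen with earlier results of these data known, fixed by name and grouped by the reaction of each enzyme. All 43 were found among the 25247 symbols of the tables. Of these, 41 had a row of their own. DUS3L was read in a row joined with PRR22, and ADAT3 in a row joined with SCAMP4, so neither can be told apart from its neighbour. RNA sequencing had been done on OCI-AML2 R50. This is a form of OCI-AML2, an established cell line of acute myeloid leukaemia (AML), and was grown in MEMα medium with 15% fetal bovine serum and 50 µM Ara-C (cytarabine, a nucleoside analogue used against AML). The control was 1 library of these cells, and the romidepsin group was 2 libraries of such cells exposed for 18 h to romidepsin, an inhibitor of class I histone deacetylases. All 3 libraries therefore share the cytarabine. No source used here gives the romidepsin dose or says whether the libraries came from separate cultures, so p-values rest on the spread of these samples alone, and that spread may be technical.

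Transfer RNA carries more chemical marks than any other class of RNA. Methyl groups and pseudouridine in the body of the molecule help it to fold and keep it from decay, while marks in the anticodon loop, above all on the wobble base, tune how codons are read. Before it is marked or while it is, a precursor tRNA also loses its ends, receives the CCA tail that holds the amino acid and, for some tRNAs, has an intron cut out. Growing cells, leukaemia cells among them, make large amounts of tRNA.

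Levels are FPKM (fragment counts divided by gene length and by library size), so that levels of different genes can be set side by side. The test took in every gene with 1 FPKM or more in any library, which held for 11708 genes and for all 43 tRNA enzyme genes, each of which also passed 1 FPKM in every library. Changes are differences of log2(FPKM + 1), romidepsin minus control, on which low genes appear to change less than they do in FPKM. The low values of the tables move in steps of single fragments, and by these steps the control was about 0.847 times as deep as each romidepsin library. The cells carried their labelled identity: the 3 leukocyte markers ranged from 71.3 to 260 FPKM and the 5 myeloid markers from 28.1 to 751 FPKM, and none of the T cell, erythroid and epithelial markers (3 of each) reached 1 FPKM. The 3 fibroblast markers summed to 0.583 FPKM in the control and to 6.12 and 6.08 FPKM after romidepsin (COL1A2 at 0 throughout), and the 3 B cell markers to 0.843, 2.18 and 2.28 FPKM (MS4A1 at 0 throughout). Among the myeloid markers, MPO went from 751 to 444 and 433 FPKM and SPI1 from 208 to 106 and 100.2 FPKM, whereas CEBPA was at 223, 265 and 262 FPKM, and the 5 summed to 1263 FPKM in the control and to 900.4 and 880.2 FPKM after romidepsin. These sums moved with the treatment, and their part in the results was not tested.

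After romidepsin most of the tRNA enzyme genes were lower. Of the 43 genes, 33 fell and 4 rose by limma (adjusted p under 0.05, Benjamini-Hochberg), and 6 were not called. Over all tested genes 41.8% were called lower and 34.7% higher, together 76.5%, against 76.7% and 9.3% of the tRNA enzyme genes. The median difference was -0.56, beside -0.05 over all tested genes. By a rule with no test, a difference of at least 1.5-fold in each romidepsin library, 21 genes (48.8%) were lower, beside 13.1% of all genes, and 0 were higher, beside 15.6% of all genes. At the 2-fold mark 7 were lower in both libraries (16.3%, beside 3.08%). Both romidepsin libraries lay below the control for 36 of the 43 genes (83.7%, beside 51.4%), above it for 6 (beside 43.8%), and on either side of it for ELP4. Among the 8682 genes whose control level fell within the span of the 43 (2.03 to 75.4 FPKM), the median difference was -0.08 and 13.7% were at least 1.5-fold lower.

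The share of genes called over the whole table rests on the small spread of the romidepsin pair and on a single control library, so romidepsin and a difference between cultures cannot be told apart. With each library scaled to an equal FPKM sum (equal-sum scaling), which moved the median of all genes by 0.22, 27 tRNA enzyme genes were lower and 9 higher (beside 25.4% and 49.5% of all genes), 12 were at least 1.5-fold lower (beside 6.24%) and 3 at least 1.5-fold higher (beside 22.8%), and the median was -0.32, while with no filter on low values 14 were called lower and 1 higher (beside 8.27% and 8.11% of all genes). Without the filter, the lower calls that held were those of WDR4, TRMT5, TRMT61A, TRMT61B, PUS1, PUS7, DUS1L, DUS2, the joined row of DUS3L, ELP3, CTU2, ALKBH8, TRNT1 and ELAC2, and the higher call was that of the joined row of ADAT3. The other 22 calls described below, METTL1 and QTRT1 among them, were lost, with limma adjusted p from 0.0516 to 0.394.

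**Figure D1:**
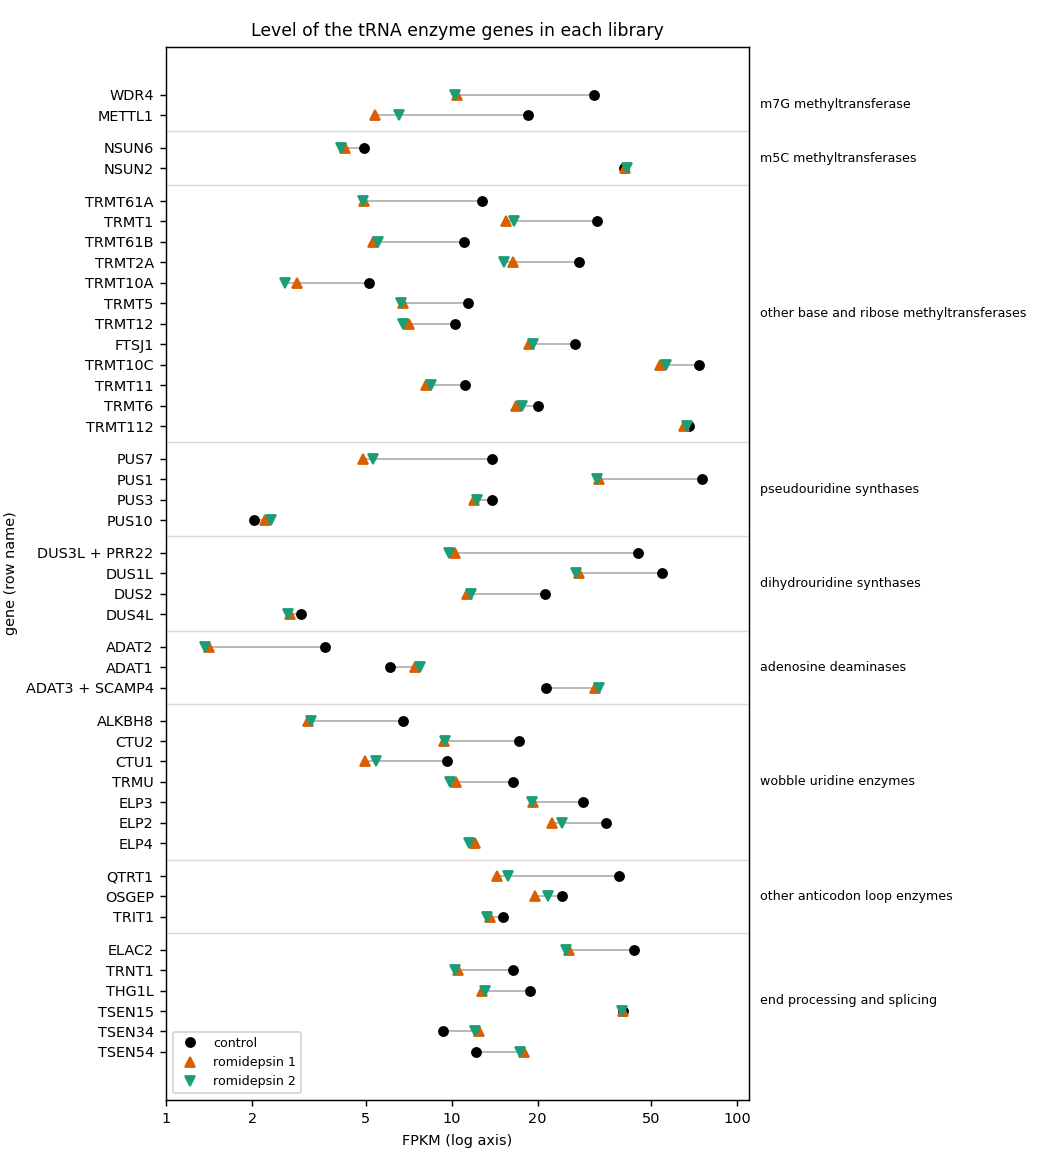
Level of each of the 43 genes in FPKM (log axis) in the control (black circles) and in romidepsin libraries 1 and 2 (orange and green triangles), grouped by reaction. The romidepsin symbols lie close together and to the left of the control for 36 genes, with the widest gap in the joined row of DUS3L and PRR22 (45.0 FPKM against 10.3 and 9.82 FPKM).

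**Figure D2:**
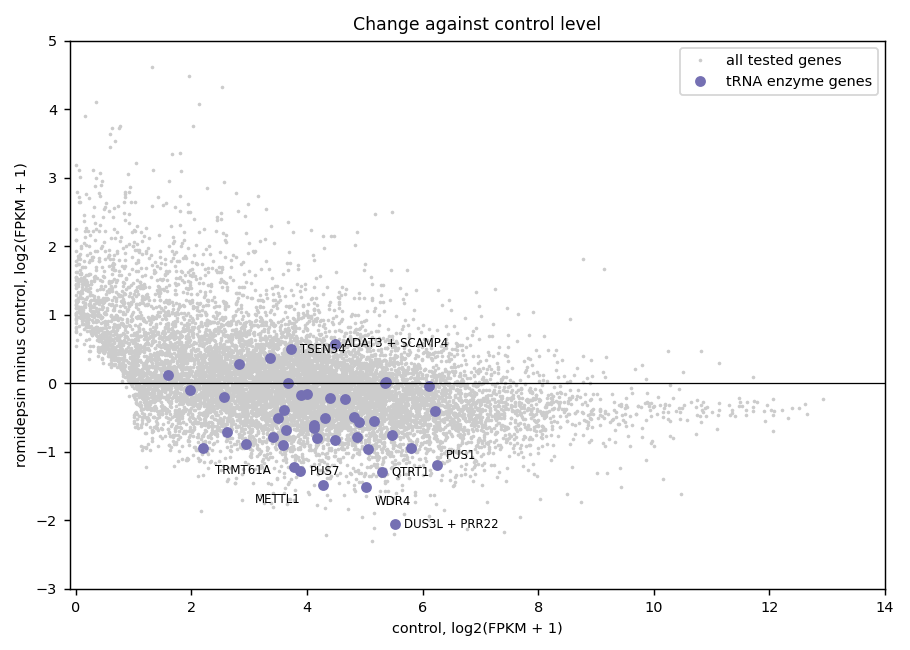
Difference after romidepsin against the control level, both on the log2(FPKM + 1) scale, for the 11708 tested genes (grey) and the 43 tRNA enzyme genes (purple). The purple points span the middle of the control range and lie mostly below 0, with a median of -0.56 beside -0.05 for all genes.

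As most of the 43 genes were called lower, the letters before the start sites of the whole list were read. They came from RefSeq promoter windows (build GRCh38.p14, matched by symbol), and 34 of the 43 genes had a window. Only the 250 bases before the start were searched, on both strands, for 4 short motifs, none of them contained in another: CACGTG, the E-box of MYC and related factors, CCGGAAG, a core of ETS factor sites, CATGCGC, part of the NRF1 site, and GGGCGG, the GC box. CACGTG was found before 1 of the 34 genes, QTRT1 (2.94%, beside 11.5% of 9208 tested genes with a window and 7.73% of all 27305 genes). CCGGAAG was found before 11 (32.4%, beside 19.7% and 10.2%), of which 5 were among the 18 genes with a window that were at least 1.5-fold lower and 6 among the other 16. CATGCGC was found before 3 (8.82%, beside 8.10% and 4.59%), near the share of tested genes, namely DUS3L, TRMT61B and WDR4. All 3 were at least 1.5-fold lower, as were 18 of the 34, and the level of DUS3L is that of its row joined with PRR22. GGGCGG was found before 25 (73.5%, beside 73.9% and 46.2%). A match is a run of letters and not a shown site, and none of the 4 motifs was found before all of the 18 genes. Shown 5′ to 3′ on the strand of the gene are 60 bases from 3 genes that fell at least 1.5-fold, 1 with the E-box letters and 2 with the NRF1 letters, which are in capitals. Each stretch lies wholly before the start site and ends 12 bases before it for QTRT1, 42 for WDR4 and 10 for TRMT61B. They lie at chr19:10701367-10701426 (plus strand) for QTRT1, chr21:42879582-42879641 (minus strand) for WDR4 and chr2:28870320-28870379 (minus strand) for TRMT61B, and no exon of GENCODE release 29 overlaps them.
QTRT1: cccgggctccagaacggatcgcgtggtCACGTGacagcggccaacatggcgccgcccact
WDR4: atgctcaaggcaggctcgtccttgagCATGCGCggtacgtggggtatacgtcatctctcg
TRMT61B: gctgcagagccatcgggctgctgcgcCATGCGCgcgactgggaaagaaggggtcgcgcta

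The m7G enzyme showed the largest joint fall of any group. METTL1 is the methyltransferase that places m7G in the variable loop of tRNA, and WDR4 is the partner that holds it on the tRNA. METTL1 was at 18.5 FPKM in the control and at 5.38 and 6.55 FPKM after romidepsin, a 3.11-fold lower mean (log2 difference -1.49 ± 0.10, SE; limma adjusted p = 8.66e-06, but 0.0894 with no filter on low values). WDR4, whose NRF1 letters are printed above, was at 31.4 FPKM in the control and at 10.4 and 10.2 FPKM, 3.05-fold lower (-1.52 ± 0.05; adjusted p = 4.98e-07). Both romidepsin values of each gene lay far below its control. The level of METTL1 relative to WDR4 was 0.590 in the control and 0.518 and 0.640 after romidepsin, so the control ratio lay between those of the treated pair. METTL1 had the widest gap of the 43 genes between the romidepsin libraries, 0.24 on the log2 scale, against a median gap of 0.04.

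The m5C methyltransferases stood closer to their control values. NSUN2, which methylates cytosines of many tRNAs, was at 40.3 FPKM in the control and at 40.6 and 41.2 FPKM after romidepsin (adjusted p = 0.654). NSUN6, which methylates a few tRNAs near their 3′ end, fell from 4.91 to 4.22 and 4.08 FPKM (-0.20; adjusted p = 0.0487), a call lost with equal-sum scaling (0.0094; adjusted p = 0.921), under which NSUN2 was called higher (0.27; adjusted p = 0.00102). The level of NSUN2 relative to METTL1, a ratio within each library that no scaling of a library alters, went from 2.18 to 7.55 and 6.30.

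Among the other methyltransferases 11 of 12 fell and 0 rose, beside 41.8% and 34.7% of all tested genes. Their median was -0.60, and 6 were at least 1.5-fold lower (50%, beside 13.1%). The largest fall was that of TRMT61A, the catalytic subunit of the m1A enzyme of the T-loop, from 12.8 to 4.93 and 4.88 FPKM (2.60-fold lower, -1.22 ± 0.07; adjusted p = 3.19e-06). TRMT6, its tRNA-binding partner, was at 20.1 FPKM in the control and at 16.8 and 17.6 FPKM after romidepsin (-0.21; adjusted p = 0.00730, but 0.029 and adjusted p = 0.672 with equal-sum scaling). The level of TRMT61A relative to TRMT6 thus went from 0.636 to 0.293 and 0.278. TRMT61B, which makes the same mark in mitochondria, fell from 11.04 to 5.29 and 5.52 FPKM (2.04-fold; adjusted p = 1.44e-05).

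TRMT1, which makes dimethylguanosine, fell from 32.2 to 15.5 and 16.6 FPKM (2.01-fold; adjusted p = 4.40e-06, but 0.0554 with no filter). TRMT5, which methylates the guanosine next to the anticodon, fell from 11.4 to 6.75 and 6.66 FPKM (1.70-fold; adjusted p = 3.86e-05). TRMT10A, which methylates a guanosine between the acceptor and D arms, fell from 5.15 to 2.87 and 2.61 FPKM (1.88-fold; adjusted p = 0.000235). In each of these the treated values lay well below the control and close to each other. TRMT2A, the methyltransferase that makes ribothymidine in the T-loop, went from 28.04 to 16.4 and 15.2 FPKM (1.77-fold; adjusted p = 1.45e-05). Its exons overlap those of RANBP1 on the other strand, which was far more abundant (215, 129 and 123 FPKM), and without stated strand use the reads of the overlap cannot be assigned.

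Smaller falls were seen in TRMT10C, a subunit of the mitochondrial RNase P, which was among the most abundant of the 43 (73.5 FPKM before and 53.8 and 56.4 FPKM after treatment, -0.41). FTSJ1, which methylates the ribose of anticodon loop bases, differed by -0.50, and TRMT12, an enzyme of the wybutosine pathway, by -0.51. TRMT112 is a small activator shared by several methyltransferases, TRMT11 and ALKBH8 among them. It was at 67.9 FPKM in the control and at 65.3 and 66.5 FPKM after romidepsin (adjusted p = 0.322), and both equal-sum scaling (0.21; adjusted p = 0.00322) and quantile normalization (0.17; adjusted p = 0.0131) called it higher. TRMT11, a guanosine methyltransferase, fell from 11.1 to 8.12 and 8.44 FPKM (-0.39; adjusted p = 0.000793), a call lost with equal-sum scaling (-0.16; adjusted p = 0.0646). TRMT112 is uncertain in level, since 7 annotated pseudogenes carry its name and its exons overlap those of ESRRA. TSEN15 has 3 such pseudogenes and QTRT1 has 1.

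The pseudouridine synthases divided. PUS1, which acts on nuclear and mitochondrial tRNAs, was the most abundant of the 43 genes in the control and fell from 75.4 to 32.7 and 32.2 FPKM (2.32-fold, -1.19 ± 0.04; adjusted p = 4.91e-07). PUS7, which modifies tRNAs and some messenger RNAs, fell from 13.8 to 4.87 and 5.28 FPKM (2.72-fold, -1.29 ± 0.07; adjusted p = 3.84e-06). PUS3, which acts on the anticodon stem, was much closer to its control, with 13.9 FPKM against 12.0 and 12.3 FPKM (-0.18; adjusted p = 0.0193, lost with equal-sum scaling, 0.058 and adjusted p = 0.412). PUS10 was the least abundant of the 43 genes in the control, at 2.03 FPKM, and was at 2.22 and 2.32 FPKM after romidepsin (adjusted p = 0.336). Its exons overlap those of PEX13 on the other strand, which went from 5.29 to 8.73 and 9.41 FPKM, so the level of PUS10 is uncertain.

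Dihydrouridine synthases, which reduce uridines of the D-loop and variable loop, showed the largest fall of a single row. The joined row of DUS3L and PRR22 went from 45.0 to 10.3 and 9.82 FPKM, 4.47-fold lower (-2.06 ± 0.05; adjusted p = 1.86e-07). DUS1L fell from 54.5 to 28.01 and 27.3 FPKM (1.97-fold; adjusted p = 1.46e-06), and DUS2 from 21.3 to 11.3 and 11.7 FPKM (1.85-fold; adjusted p = 7.54e-06). The fourth enzyme, DUS4L, differed by -0.11, at 2.96 FPKM in the control against 2.70 and 2.66 FPKM (adjusted p = 0.321). DUS4L was also the lowest of the family, and quantile normalization called it lower (-0.35; adjusted p = 0.0222). Exons of DUS4L overlap those of the more abundant COG5 on the other strand (12.1, 10.2 and 10.7 FPKM), so its level is uncertain.

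The adenosine deaminases went in both directions. ADAT2 is the catalytic subunit of the enzyme that turns the wobble adenosine into inosine, and fell from 3.60 to 1.41 and 1.36 FPKM (2.59-fold, -0.95 ± 0.10; adjusted p = 0.000104, but 0.0623 with no filter). Its partner ADAT3 was read with SCAMP4 in a row that rose from 21.4 to 31.8 and 32.8 FPKM (0.58 ± 0.05; adjusted p = 2.04e-05), the largest rise of the 43. The share of either gene in that rise cannot be told apart. ADAT1, which deaminates an adenosine beside the anticodon of alanine tRNA, rose from 6.07 to 7.46 and 7.74 FPKM (0.28; adjusted p = 0.00594).

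**Figure D3:**
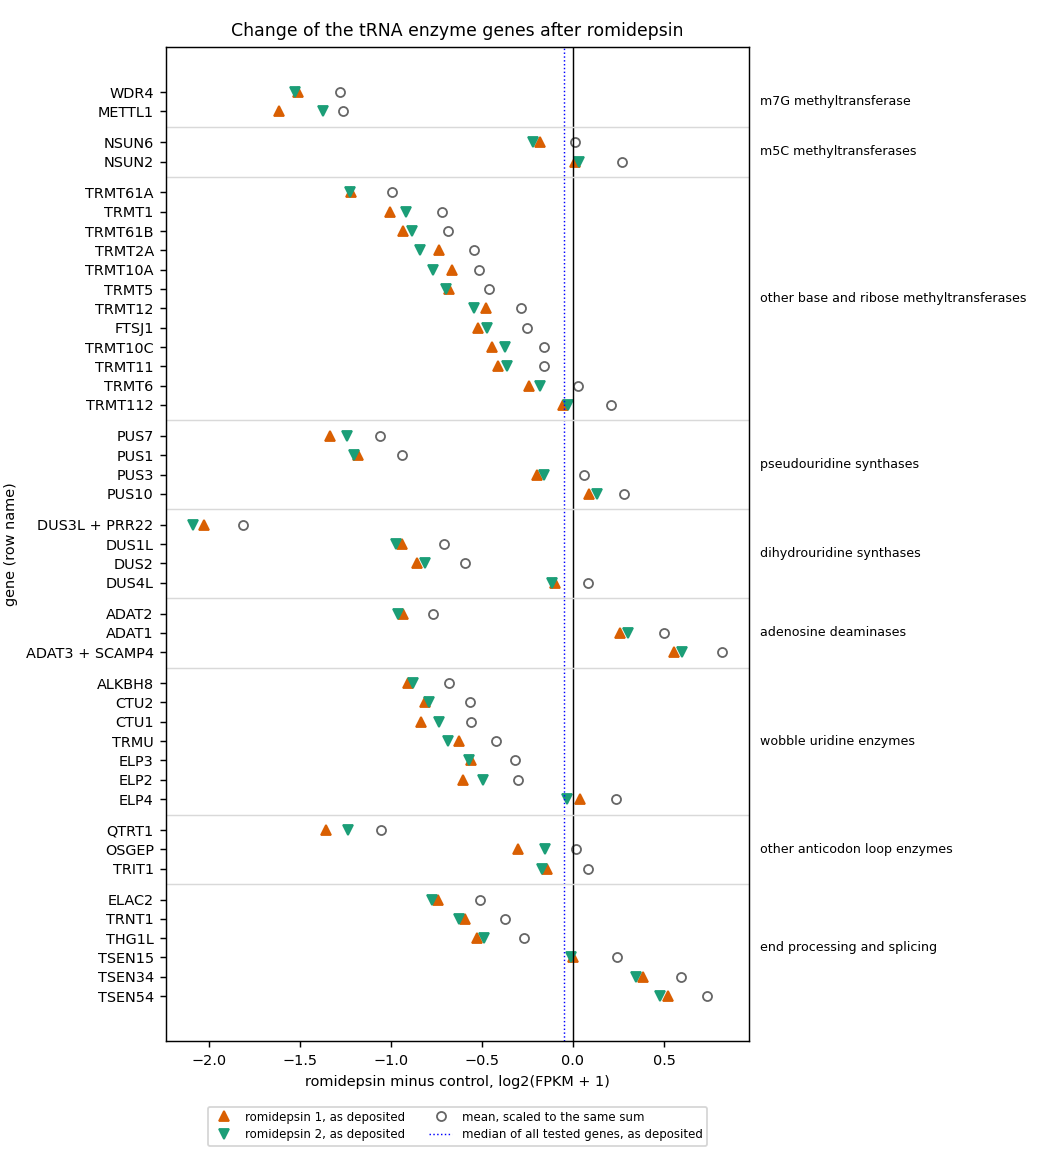
Difference from the control on the log2(FPKM + 1) scale for each gene in romidepsin libraries 1 and 2 (triangles) and for their mean after equal-sum scaling (open circles), grouped by reaction, with the median of all tested genes as a dotted line. The scaling moves every gene to the right, by less for the genes of lowest level, and leaves 27 genes called lower and 9 called higher.

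Enzymes of the wobble uridine, which build its carboxymethyl, methyl and thiol groups in sequence, fell in 6 of 7 cases. This stood beside 41.8% of all tested genes, and the median of the 7 was -0.66. ELP3, the catalytic subunit of the Elongator complex that starts the series, fell from 28.9 to 19.3 and 19.2 FPKM (1.504-fold; adjusted p = 2.34e-05), and the scaffold subunit ELP2 from 34.6 to 22.5 and 24.3 FPKM (1.48-fold; adjusted p = 7.98e-05). ELP4, of the accessory part of Elongator, was at 11.8 FPKM in the control and at 12.1 and 11.5 FPKM after romidepsin (adjusted p = 0.989, called higher with equal-sum scaling, 0.24 and adjusted p = 0.00809). The level of ELP3 relative to ELP4 accordingly went from 2.46 to 1.60 and 1.67.

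ALKBH8, which methylates the carboxymethyl group with TRMT112 as its activator, fell from 6.75 to 3.13 and 3.21 FPKM (2.13-fold; adjusted p = 3.52e-05). CTU1 and CTU2 form the enzyme that thiolates the wobble uridine in the cytosol. CTU1 fell from 9.66 to 4.98 and 5.41 FPKM (1.86-fold; adjusted p = 5.07e-05) and CTU2 from 17.2 to 9.36 and 9.50 FPKM (1.82-fold; adjusted p = 1.03e-05). Their ratio was nearly the same in every library, 0.563 in the control and 0.532 and 0.569 after romidepsin. Exons of CTU2 overlap those of the more abundant PIEZO1 on the other strand (34.1, 32.1 and 30.9 FPKM), so this ratio is uncertain. TRMU, which thiolates the same base in mitochondria, fell from 16.5 to 10.3 and 9.84 FPKM (1.63-fold; adjusted p = 3.55e-05).

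Of the other anticodon loop enzymes, QTRT1 changed most. It is the catalytic subunit of the transglycosylase that swaps the wobble guanine for queuine, and its E-box letters are printed above. QTRT1 fell from 38.6 to 14.4 and 15.8 FPKM (2.55-fold, -1.30 ± 0.06; adjusted p = 1.78e-06, but 0.0550 with no filter). QTRT2, the other subunit, which is outside the 43 genes, fell from 13.5 to 9.52 and 9.003 FPKM (limma adjusted p = 0.000198, but 0.0827 with no filter), and the ratio of QTRT1 to QTRT2 went from 2.85 to 1.52 and 1.75. OSGEP, the catalytic subunit of the KEOPS complex that makes t6A, was at 24.4 FPKM in the control and at 19.6 and 21.8 FPKM (-0.23; adjusted p = 0.0157). TRIT1, which adds an isopentenyl group beside the anticodon, was at 15.1 FPKM against 13.6 and 13.3 FPKM (-0.15; adjusted p = 0.0297). With equal-sum scaling neither call held (0.016 and adjusted p = 0.852 for OSGEP, 0.083 and adjusted p = 0.216 for TRIT1).

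In end processing and splicing, 3 of 6 genes fell (50%) and 2 rose (33.3%), near the 41.8% and 34.7% of all tested genes. ELAC2, the RNase Z that cuts off the 3′ trailer, fell from 43.6 to 25.7 and 25.1 FPKM (1.72-fold; adjusted p = 4.66e-06). TRNT1, which adds the CCA tail, fell from 16.4 to 10.6 and 10.3 FPKM (1.57-fold; adjusted p = 4.10e-05). THG1L, which adds the guanosine at the 5′ end of histidine tRNA, fell from 18.8 to 12.7 and 13.1 FPKM (-0.51).

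Of the 3 splicing endonuclease genes among the 43, 2 were called higher, beside 34.7% of all tested genes. TSEN54, a structural subunit, rose from 12.2 to 18.0 and 17.4 FPKM (1.45-fold, 0.50 ± 0.05; adjusted p = 8.85e-05), and the nuclease subunit TSEN34 from 9.30 to 12.5 and 12.1 FPKM (1.32-fold, 0.36 ± 0.06; adjusted p = 0.000753). With no filter on low values both calls were lost (adjusted p = 0.0560 for TSEN54 and 0.0705 for TSEN34). TSEN15, the other structural subunit, was at 39.8 FPKM in the control and at 39.8 and 39.5 FPKM after romidepsin (adjusted p = 0.907), and was called higher with equal-sum scaling (0.24; adjusted p = 0.00153) and with quantile normalization (0.14; adjusted p = 0.0254).

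**Figure D4:**
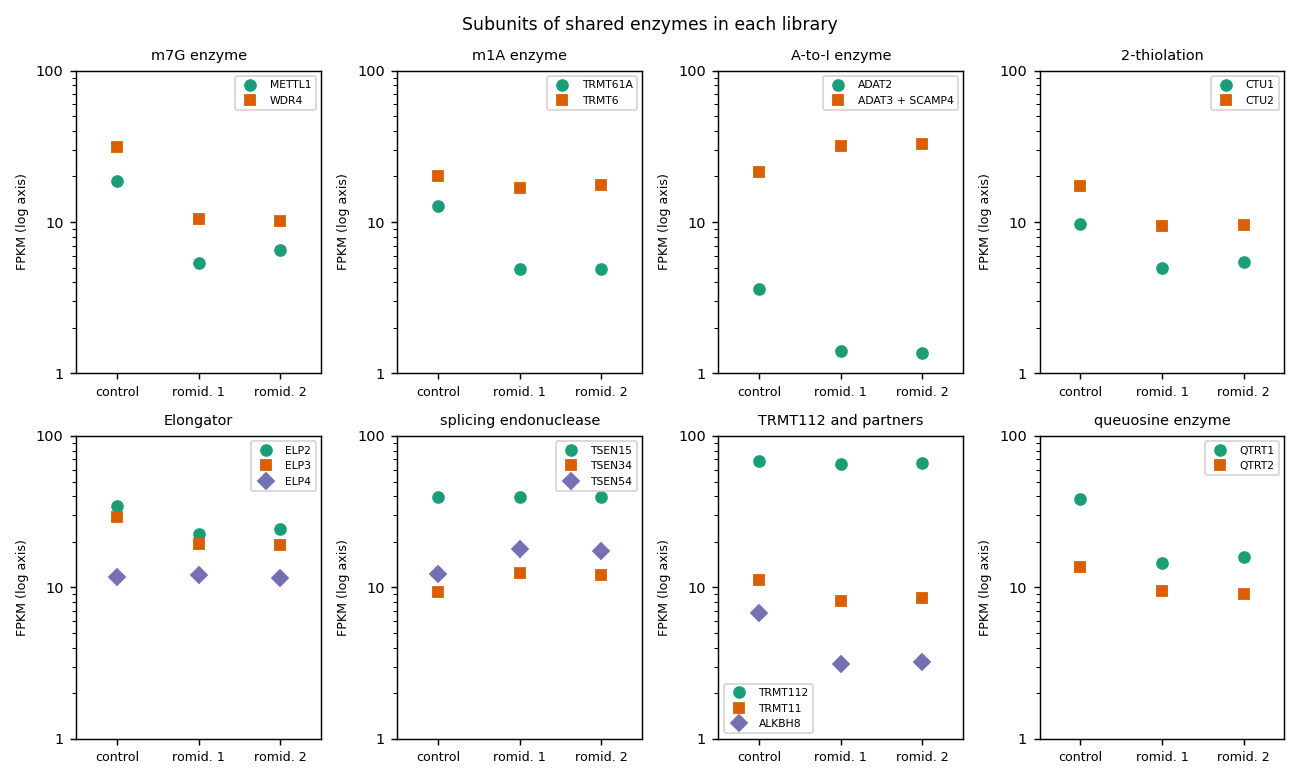
Level in FPKM (log axis) of genes whose products share an enzyme, in the control and in romidepsin libraries 1 and 2. METTL1 with WDR4 and CTU1 with CTU2 shift in parallel, whereas TRMT61A separates from TRMT6 (ratio 0.636, then 0.293 and 0.278) and QTRT1 draws closer to QTRT2 (2.85, then 1.52 and 1.75).

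These ratios between partners were not tested. Exons of 14 of the 43 genes overlap those of another coding gene in GENCODE release 29, and as no source used here gives the strand setting, the reads of such overlaps cannot be told apart. METTL1 overlaps CYP27B1 on its own strand, at 1.42, 0.943 and 0.978 FPKM in the control and the romidepsin libraries, and EEF1AKMT3 on the other strand, listed under its older symbol METTL21B and at 2.41, 0.952 and 1.08 FPKM. DDX28, on the other strand of DUS2, was at 12.2, 5.71 and 6.12 FPKM. Of the 29 genes with no such overlap, 24 fell and 3 rose, beside 41.8% and 34.7% of all tested genes. At least 1.5-fold lower were 12 of the 29 (41.4%, beside 13.1%), and their median was -0.51, beside -0.05. The shares of all tested genes include genes with overlaps.

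Other genes of tRNA modification and processing, listed by name but with earlier results of these data known, were also mostly lower. Of 70 genes, 69 were tested (TRMT9B, listed under its older symbol, was at 0 in every library). Of these, 54 fell (78.3%, beside 41.8% of all genes) and 5 rose (7.25%, beside 34.7%). Their median was -0.36, beside -0.05, and 16 (23.2%) were at least 1.5-fold lower, beside 13.1% of all genes and 48.8% of the 43 enzymes. With equal-sum scaling 31 were lower and 10 higher, beside 25.4% and 49.5% of all genes. With no filter on low values 10 were lower and 2 higher, beside 8.27% and 8.11% of all genes. The difference between the lists was not tested. The largest falls were those of METTL8, an m3C methyltransferase of mitochondrial tRNA, from 4.74 to 1.30 and 1.49 FPKM (-1.26), and RPP40, a subunit of RNase P, from 19.7 to 7.26 and 8.28 FPKM (-1.24). DTWD1, an enzyme that adds aminocarboxypropyl groups to uridine, fell from 42.9 to 15.6 and 19.9 FPKM (-1.24), and TYW3, of the wybutosine pathway, from 35.9 to 15.6 and 14.03 FPKM (-1.22). The calls of these 4 genes were lost with no filter (limma adjusted p from 0.0663 to 0.151).

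The largest rise in this list was in ELAC1, the short form of RNase Z, from 2.005 to 4.68 and 4.26 FPKM (0.86; adjusted p = 9.01e-05, but 0.0869 with no filter), whereas its long relative ELAC2 fell. TRPT1, a phosphotransferase linked to tRNA splicing, rose from 16.2 to 22.1 and 22.5 FPKM (0.44), and TRMT1L, a relative of TRMT1, from 9.67 to 13.0 and 12.9 FPKM (0.39). TRDMT1, an m5C methyltransferase, rose from 2.40 to 2.95 and 3.13 FPKM (0.25; adjusted p = 0.0426), a call lost with quantile normalization (-0.01; adjusted p = 0.910) and with no filter (adjusted p = 0.272). The 7 pseudouridine synthases of this list were all called lower, beside 41.8% of all tested genes, with a median of -0.63. RPUSD2 lost its call with equal-sum scaling (-0.059; adjusted p = 0.539) and with quantile normalization (-0.26; adjusted p = 0.102), and with no filter all 7 lost theirs (adjusted p from 0.0554 to 0.458).

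**Figure D5:**
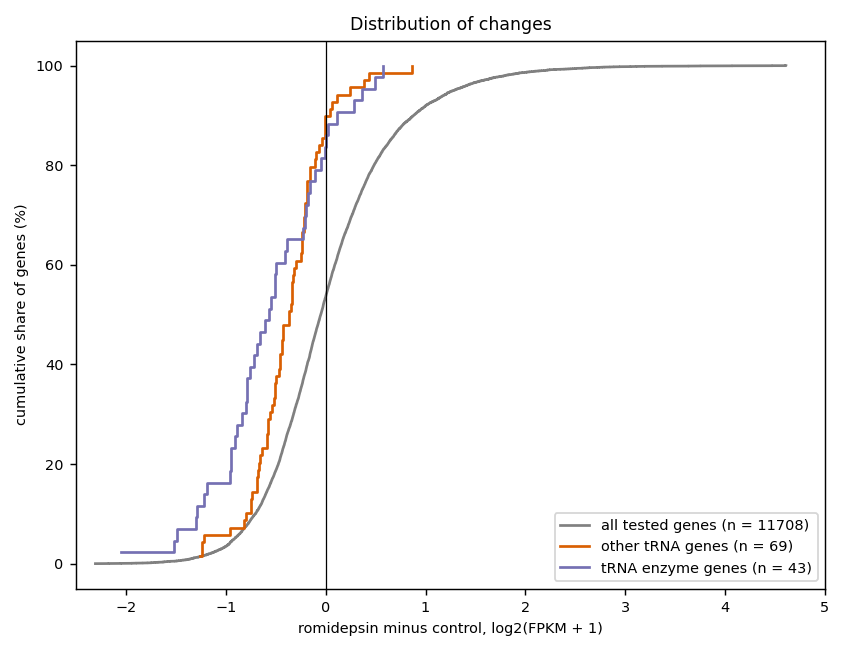
Cumulative share of genes (%) against the difference after romidepsin on the log2(FPKM + 1) scale, for the 43 tRNA enzyme genes (purple), the 69 other tRNA genes tested (orange) and all 11708 tested genes (grey). The purple and orange curves rise to the left of the grey one, with medians of -0.56, -0.36 and -0.05, and the purple curve extends furthest to the left of these 2 lists, to -2.06.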

How the data were processed

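The authors deposited FPKM values, 1 table of 28837 rows for each library, per the file headers. The submitters' processing notes name TopHat, Cufflinks, Cuffdiff and hg19; no source used here gives their versions and settings or the gene annotation. The 1770 rows with no gene name (21.1% to 22.3% of summed FPKM) and 27 rows named by a number were left out, and rows of a symbol were summed. Total depth is unknown. Genes reaching 1 FPKM in at least 1 library were compared on log2(FPKM + 1) with limma 3.58.1 in R 4.3.3 (lmFit, eBayes with trend), adjusted by Benjamini-Hochberg over 11708 genes. The romidepsin pair gave 1 residual degree of freedom, and 6.06 came from the prior; the lone control was assumed to vary alike. The fit was tested on simulated data. Python 3.11.15, pandas 2.3.3, numpy 2.4.6 and matplotlib 3.10.9 did the rest. Members and lists were chosen with earlier results of these data known. Values were given in full for genes at least 1.5-fold different in both libraries, their partners and genes called higher, and for the 4 largest falls and rises among the other tRNA genes. Alternatives changed the pseudocount, filter, scaling, trend and row handling, and left out each romidepsin library. Promoter letters came from a different build than the authors', by symbol only.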

Additional observations from a re-analysis of the deposited data

How the results depend on the processing

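The main counts were 33 lower, 4 higher, 21 at least 1.5-fold lower and 0 at least 1.5-fold higher, with a median of -0.56. With equal-sum scaling, 9 were called higher, 12 were at least 1.5-fold lower and 3 at least 1.5-fold higher, and the median was -0.32; NSUN6 (0.0094), TRMT6 (0.029), TRMT112 (0.21), PUS3 (0.058), DUS4L (0.082), TRIT1 (0.083), OSGEP (0.016) and TSEN15 (0.24) changed sign. With quantile normalization, 7 were called higher, 1 was at least 1.5-fold higher, the median was -0.55, and TRMT112 (0.17), TSEN15 (0.14) and PUS10 (-0.18) changed sign. The calls of 27 lower and 4 higher genes held under both scalings. With no filter, 14 were called lower and 1 higher; the cause was not tested. A pseudocount of 0.1 gave a median of -0.59. Leaving out a romidepsin library left no residual degree of freedom, so no calls; it gave 21 to 22 genes at least 1.5-fold lower, 0 to 1 higher (1 without romidepsin replicate 1) and medians of -0.57 to -0.59. For the other tRNA genes (54 lower, 5 higher), the alternatives were added after seeing the data. Equal-sum scaling gave 31 lower and 10 higher (beside 25.4% and 49.5% of all genes). No filter gave 10 and 2 (beside 8.27% and 8.11%), and a mean of at least 5 FPKM gave 3 higher. No paired analysis was possible because the control is a single library, so the groups share fewer than 2 replicate numbers.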
